A study of Rattus norvegicus with 174 samples.

Results

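The mitochondrial ribosome translates the few messenger RNAs of the mitochondrial genome, which encode core subunits of the respiratory chain and of ATP synthase. Its RNAs are mitochondrial, but all its proteins are encoded in the nucleus, made in the cytosol and imported. They are named Mrpl for proteins assigned to the large subunit and Mrps for those assigned to the small subunit, and some are homologues of bacterial ribosomal proteins while others occur only in mitochondria. Tissues rich in mitochondria, such as heart, are known for high levels of these proteins.

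The genes described here are those whose symbol on the array platform starts with Mrpl or Mrps followed by a digit. The rule found 73 genes among 13438 measured, 46 named Mrpl and 27 named Mrps. By their known position, 48 belong to the large and 25 to the small subunit, since a few proteins named Mrps sit in the large one. Homologues of bacterial proteins make up 44 of the 73, and 29 are specific to mitochondria. All 73 symbols matched a RefSeq gene, 53 had 1 probe set and 20 had several, of which the brightest by mean over all arrays was used. None of the 73 lay under the 40th percentile of mean signal over all arrays (5.167), although in air rats Mrpl44, Mrpl47, Mrpl38, Mrpl19, Mrpl2 and Mrps11 in blood and Mrpl38 in lung averaged less than that value. Their mean log2 signal ran between 5.951 and 9.734, with a median of 8.164, against a median of 5.776 over all genes.

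Adult male Sprague-Dawley rats, an outbred stock, breathed phosphine (PH3, a toxic fumigant gas) at 660 ppm for 32.2 min with the whole body exposed, a product of 21252 ppm x min that lies just under the median lethal product by the submitters' account, or air. Brain, heart, kidney, liver, lung and blood were taken 1, 3, 6 or 24 h later from 33 rats, which gave 174 arrays. Each solid-tissue group had 4 rats, except air at 6 h with 2. For blood there were 4 exposed rats and 4 air rats at 1 h and again at 3 h, 5 and 1 at 6 h, and 2 exposed rats alone at 24 h. Exposed and air rats were different animals, while each rat of a solid-tissue group gave all its solid tissues. Some rats gave blood alone, as Rat713, Rat722 and Rat790 did, and some gave no blood. The rats of each time are different animals from those of the other times.

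Values are log2 signals, so that a difference of 1 is 2-fold. Differences are phosphine minus air at the same time ± the standard error of a limma fit over all arrays of a tissue, and a gene is called when its Benjamini-Hochberg adjusted p (padj) over all 13438 genes is under 0.05. Each tissue's own marker list was high on every one of its arrays, for example 11.04 to 12.39 for cardiomyocyte markers in heart and 12.86 to 13.05 for hepatocyte markers in liver. On 11 solid-tissue arrays, however, the markers of another organ stood at least 4 log2 above the tissue's median. They were 5 exposed hearts (Rat712, Rat729, Rat741, Rat749 and Rat760), the exposed lungs of Rat716 and Rat729, the exposed livers of Rat719 and Rat741, the air kidney of Rat720 and the air lung of Rat733. Blood arrays were much noisier than those of solid tissues, with a median standard error for the 73 genes of 0.384 at 3 h.

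The result in brief is that these transcripts differed widely between tissues and little between exposed and air rats. Of 1679 pairs of a gene and a comparison, 24 were called, 9 higher and 15 lower after phosphine, and they involved 21 of the 73 genes and 8 of 23 comparisons. In solid tissues 17 of 1460 pairs were called, or 1.16%, against 1.88% of all gene pairs there. The 95% confidence interval of the difference lay within 1.5-fold either way for 1424 of these 1460 pairs, or 97.5%, against 73.3% of all gene pairs in the same tissues. These shares were not matched for signal, and the 73 genes were brighter, with a median mean signal of 8.164 against 5.776 over all genes. No solid-tissue pair differed by more than 0.91. In these bulk samples, fewer cells of a type and less RNA per cell cannot be told apart.

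The pair with the greatest solid-tissue differences was Mrps2, a small subunit protein with a bacterial homologue, and Mrpl47, a large subunit protein with one. Mrpl34, a small large-subunit protein with a bacterial homologue, was the one gene called in 3 comparisons, 1 of them close to the threshold. The RefSeq promoters of these genes (build GRCr8) are shown because the genes moved together in liver or repeatedly across tissues. Each is 5′ to 3′ on the gene's strand, with the 250 bases before the annotated start in lower case and the 50 bases from the start on in capitals. Mrps2 lies on the plus strand at chr3:32200827-32201126, Mrpl47 on the minus strand at chr2:117447312-117447611 and Mrpl34 on the plus strand at chr16:18186197-18186496.
Mrps2: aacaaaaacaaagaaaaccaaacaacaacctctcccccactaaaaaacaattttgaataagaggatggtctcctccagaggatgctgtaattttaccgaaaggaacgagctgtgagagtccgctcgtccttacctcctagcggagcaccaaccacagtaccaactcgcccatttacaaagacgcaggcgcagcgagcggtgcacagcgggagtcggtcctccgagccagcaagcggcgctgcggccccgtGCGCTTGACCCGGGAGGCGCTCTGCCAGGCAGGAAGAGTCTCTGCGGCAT
Mrpl47: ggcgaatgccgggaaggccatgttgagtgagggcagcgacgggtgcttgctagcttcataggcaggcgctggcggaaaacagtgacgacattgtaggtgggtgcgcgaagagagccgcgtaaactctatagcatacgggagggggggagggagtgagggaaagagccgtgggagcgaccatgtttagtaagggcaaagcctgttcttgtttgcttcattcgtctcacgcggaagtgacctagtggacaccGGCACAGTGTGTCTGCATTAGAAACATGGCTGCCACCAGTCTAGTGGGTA
Mrpl34: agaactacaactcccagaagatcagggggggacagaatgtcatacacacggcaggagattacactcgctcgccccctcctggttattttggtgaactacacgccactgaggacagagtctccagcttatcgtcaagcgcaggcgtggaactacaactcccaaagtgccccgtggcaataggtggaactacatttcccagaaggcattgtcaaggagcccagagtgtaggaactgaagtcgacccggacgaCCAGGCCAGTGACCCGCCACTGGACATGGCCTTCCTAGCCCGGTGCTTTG

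Promoters of 59 of the 73 genes were in the table. They were searched on both strands for 4 words of 8 letters taken as cores of motifs of factors known to regulate nuclear genes for mitochondria. The words were GCATGCGC for NRF1, CCGGAAGT for ETS factors such as GABPA, AAGATGGC for YY1, and TGACGTCA, the cyclic AMP response element (CRE). The YY1 core was in 14 of 59 promoters, or 23.7%, against 3.44% of all 27457 promoters in the table. In 10 of the 59, or 16.9%, it lay on the gene's strand within the 50 bases from the start on, against 1.25% of all. The ETS core was in 8 (13.6%, against 4.01% of all), the NRF1 core in 5 (8.47%, against 2.66%) and the CRE in 1 (1.69%, against 1.91%), that of Mrpl55. At least 1 of the 4 words was in 24 of the 59 promoters, or 40.7%, against 11% of all. None was in the promoters of Mrps2, Mrpl47 or Mrpl34, which says only that these letters are not in these windows. A match is a description of letters and not a binding site.

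In air rats the level of these transcripts followed the tissue. Each tissue was set against the mean of the other tissues over all air arrays (14 per solid tissue, 9 of blood, limma). Heart was higher for 73 of 73 genes, with a median difference of 1.35, while over all genes 36.3% were called higher and 42.2% lower, with a median of -0.06. Kidney was higher for 63 and lower for 1 (median 0.54, over all genes -0.01, with 40.7% higher and 39.9% lower). Liver was higher for 59 and lower for 3 (median 0.43, over all genes -0.07, with 36.1% higher and 43.7% lower). Brain was higher for 17 and lower for 43 (median -0.26, over all genes -0.19, with 36.5% higher and 51.5% lower). Lung was higher for 3 and lower for 64 (median -0.54, over all genes 0.02, with 43.8% higher and 41.9% lower). Blood was higher for 3 and lower for 69 (median -1.76, over all genes -0.44, with 33.7% higher and 55.9% lower).

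**Figure D1:**
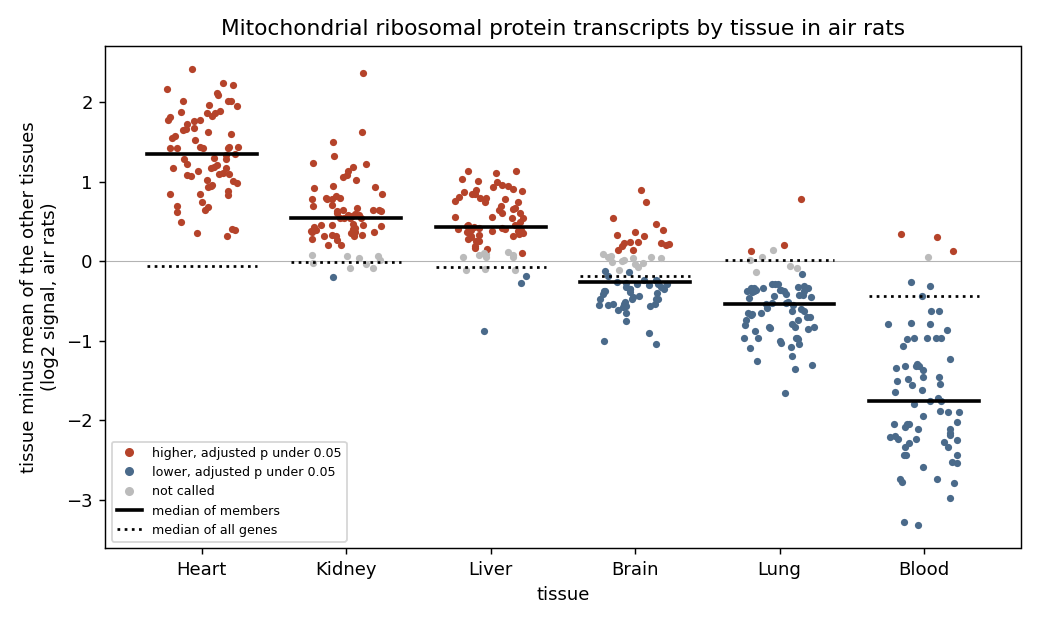
Log2 signal of each tissue minus the mean of the other tissues in air rats (y axis) for the 73 genes in 6 tissues (x axis). Each point is 1 gene, solid lines are medians of the 73 genes and dotted lines medians of all genes; every heart point lies above 0 and the blood median is -1.76.

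Heart held the highest tissue mean for 64 of the 73 genes, kidney for 5 and liver for 4. For 43 of the 73 genes every air heart array lay above every air array of every other tissue, as it did for 6.3% of all genes. Among the solid tissues, lung was lowest for 57 genes and brain for 16. Heart exceeded lung in 73 of 73 genes (median 1.59), brain in 72 (median 1.32) and kidney and liver in 68 each (medians 0.67 and 0.69). Over all genes heart was above lung in 49.7%, above kidney in 53.5% and above liver in 50.6%, and brain was above heart in 41.2%. Kidney and liver were not ordered as a group: kidney was above liver in 38 of 73 genes, with a median difference of 0.10. Over all genes kidney was above liver in 48.2%, with a median of -0.03. Arrays of both tissues overlapped in all but 15 of the 73, and that share was not counted over all genes. The range of tissue means within a gene ran between 0.72 (Mrpl43) and 4.27 (Mrpl15), with a median of 2.57, or 1.68 without blood.

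The genes with the widest range were Mrpl15, Mrpl16, Mrpl44, Mrpl47, Mrpl12, Mrps6, Mrpl51 and Mrpl42. Mrpl12, which is known to bind the mitochondrial RNA polymerase, had the greatest excess in heart (2.42 ± 0.07 above the other tissues, padj = 1.21e-46). Its air levels were 10.26 ± 0.08 in heart, 9.27 ± 0.08 in kidney, 8.49 ± 0.07 in liver, 7.99 ± 0.08 in brain and 7.35 ± 0.11 in lung (SD, n = 14 rats each), and 6.14 ± 0.70 in blood (SD, n = 9). These solid-tissue arrays did not overlap between any neighbours in that order. Mrpl45 (2.24 ± 0.06), Mrpl47 (2.22 ± 0.06) and Mrpl16 (2.16 ± 0.07) followed in heart.

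The smallest heart excesses were those of Mrps33 (0.32 ± 0.04), Mrpl53 (0.35 ± 0.04), Mrpl52 (0.39 ± 0.07) and Mrpl43 (0.40 ± 0.05). Mrps6 departed most from the heart-first order. It was at 9.74 ± 0.10 in kidney, 9.03 ± 0.17 in heart, 8.16 ± 0.10 in brain, 7.04 ± 0.18 in liver and 6.96 ± 0.21 in lung (SD, n = 14 each), so that liver and lung did not differ beyond their spread. It was thus the gene with the greatest kidney excess (2.37 ± 0.09, padj = 5.83e-41) and, against the others, the one most reduced in liver (-0.88 ± 0.09, padj = 1.38e-15). Mrpl15 (1.63 ± 0.06), Mrps25 (1.5 ± 0.08) and Mrpl16 (1.32 ± 0.07) were the next in kidney, where Mrps27 alone was lower (-0.20 ± 0.07, padj = 0.00795). In liver Mrpl2 (1.14 ± 0.08), Mrpl32 (1.13 ± 0.07), Mrps28 (1.11 ± 0.08) and Mrpl15 (1.04 ± 0.06) had the greatest excess, while Mrpl48 (-0.27 ± 0.07) and Mrpl53 (-0.19 ± 0.04) were lower with Mrps6.

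Brain stood above the other tissues most for Mrpl49 (0.89 ± 0.08), Mrpl48 (0.75 ± 0.07), Mrpl51 (0.55 ± 0.07) and Mrps6 (0.47 ± 0.09). It was lowest against them for Mrpl14 (-1.04 ± 0.07), Mrpl40 (-1 ± 0.07), Mrps23 (-0.90 ± 0.05) and Mrps12 (-0.75 ± 0.04). Lung showed the opposite for Mrpl14, a homologue of a bacterial protein, which was 0.78 ± 0.07 higher there (padj = 2e-17). The other genes higher in lung were Mrpl17 (0.20 ± 0.04) and Mrpl18 (0.13 ± 0.06). Lung was most below the rest for Mrpl38 (-1.66 ± 0.09), Mrps34 (-1.35 ± 0.05), Mrpl37 (-1.30 ± 0.04) and Mrps35 (-1.25 ± 0.07). In blood Mrpl15 (-3.32 ± 0.08), Mrpl16 (-2.97 ± 0.09) and Mrps7 (-2.79 ± 0.07) were among the lowest with Mrpl44, which had 3.26 to 5.16 there, a level too dim for its difference to be given, and Mrpl53 (0.34 ± 0.05), Mrps21 (0.30 ± 0.05) and Mrpl57 (0.13 ± 0.05) were higher.

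Large and small subunit genes lay close together in heart, with medians of 1.43 over 48 and 1.21 over 25 genes. Homologues of bacterial proteins and mitochondria-specific proteins had heart medians of 1.42 and 1.29. In heart, 5 of 5 further mitoribosomal proteins (Dap3, Ptcd3, Chchd1, Aurkaip1, Gadd45gip1), 20 of 26 assembly and rRNA-handling genes, 12 of 15 translation factors, 14 of 16 aminoacyl-tRNA synthetases, 13 of 16 proteases and chaperones and 15 of 20 regulators of transcription and biogenesis were higher. Lower in heart were 2 assembly genes, 2 translation factors and 4 regulators. Over all genes 36.3% were higher in heart and 42.2% lower. These are counts of lists named for their main kind of gene, and some lists also hold related genes. The order depended in part on scaling, since the arrays' all-gene medians differ by tissue. With each array centred on its median, the all-gene median moved to -0.32 in kidney, -0.34 in lung and 0.43 in blood. The counts then were 44 higher and 10 lower in kidney, 10 and 45 in brain, 1 and 72 in lung, and 9 and 55 in blood, while heart stayed at 73 higher. Quantile normalization over all air arrays gave 47 higher and 9 lower in kidney, 42 and 15 in liver, and 13 and 53 in blood. Blood also set part of the contrasts: without it, kidney had 51 higher and 11 lower, liver 44 and 16, brain 4 and 65, and heart 72 and 0.

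Phosphine was then set against air at each time. In brain 1 of 73 genes was called, Mrpl41 at 3 h. Mrpl41, a large subunit protein specific to mitochondria, had 9.71, 9.71, 9.67 and 9.87 in exposed rats, against 9.39, 9.28, 9.23 and 9.29 in air rats. All exposed brains lay above all air brains, and the difference was 0.44 ± 0.10 (padj = 0.0287). Other measures were apart in the same brains: astrocyte markers averaged 10.48 to 10.57 in exposed and 10.24 to 10.39 in air rats, erythroid markers 3.648 to 4.067 and 3.416 to 3.588, and the 3′ minus 5′ difference of control genes, higher in less intact RNA, 0.272 to 0.4267 and 0.483 to 0.5597. Their part in the result was not tested. The adjusted p of Mrpl41 was above 0.05 when 7 of the 8 rats were left out one at a time, reaching 0.145, with differences of at least 0.38. Background calls in brain were 0.112% higher and 0.0372% lower at 1 h and 0.365% higher and 0.141% lower at 3 h, and 0% in either direction at 6 and 24 h. At an unadjusted p under 0.05, 4 higher and 7 lower genes were found at 1 h (all genes 5.2% and 5.77%), 3 and 0 at 3 h (4.38% and 4.27%), 1 and 1 at 6 h (2.88% and 2.76%), and 0 and 1 at 24 h (1.73% and 2.06%). The 73 genes had a median of 0.053 at 3 h, with 56 of 73 above 0, and medians between -0.025 and -0.010 at the other times. Over all genes the medians lay between -0.004 and 0.

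**Figure D2:**
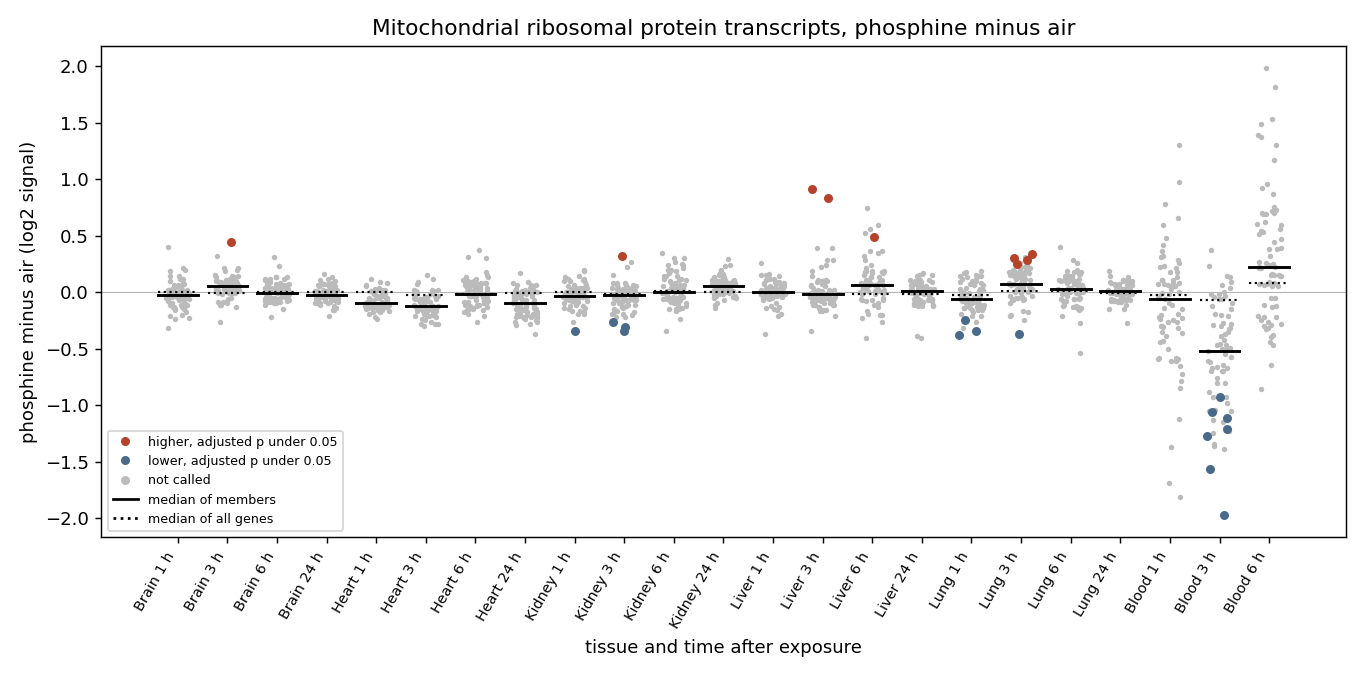
Phosphine minus air (log2 signal, y axis) for the 73 genes in each of 23 comparisons of tissue and time (x axis). Each point is 1 gene, coloured where called; solid lines are medians of the 73 genes and dotted lines medians of all genes. In solid tissues the points gather near 0, 2 genes in liver at 3 h lie at 0.83 and 0.91, and blood at 3 h has its median at -0.52.

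Heart, the tissue with the highest levels, had 0 of 73 genes called at every time in limma. Background calls there were 0.99% higher and 0.342% lower at 1 h, 1.06% and 2.28% at 3 h, 0.186% and 0.164% at 6 h, and 0.0744% and 0.00744% at 24 h. At an unadjusted p under 0.05, 1, 4, 0 and 10 genes were lower and 0, 0, 1 and 0 higher at 1, 3, 6 and 24 h. Over all genes 4.75%, 11.5%, 5.52% and 4.09% were lower at that p, so that the members' share was above that of all genes at 24 h (13.7%) and below it at the other times. Most of the 73 genes lay slightly below 0: the medians were -0.095, -0.123, -0.018 and -0.099 at the 4 times, with 13, 10, 34 and 14 of 73 genes above 0. Over all genes the medians lay between -0.021 and -0.001. Liver or lung markers stood high in 5 of the exposed hearts, and their part in those medians was not tested. Without these 5 hearts the medians were -0.063 (3 exposed and 4 air rats), -0.010 (3 and 4), -0.002 (3 and 2) and 0.008 (2 and 4). Then 19, 32, 35 and 37 genes lay above 0, and 0 were called. At an unadjusted p under 0.05, 0, 0, 1 and 3 genes were lower without those hearts, so that 3 stood in place of 10 at 24 h. The share of all genes at that p was not counted in this fit. At 6 h both air hearts that stayed in it, Rat762 and Rat763, had hepatocyte markers at 7.163 and 7.303, under the cutoff. The exposed hearts that stayed had 3.528 (Rat758), 5.536 (Rat761) and 3.534 (Rat789), and the part of these markers was not tested. At 3 h the exposed heart of Rat729, with hepatocyte markers at 12.61 against 3.396 to 3.946 in air hearts, had a median over the 73 genes of 8.78, and the other exposed hearts had 9.23 to 9.31.

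In kidney Mrpl34 was lower at 1 and 3 h, and 3 more genes were called at 3 h. Mrpl34 had 8.62, 8.46, 8.50 and 8.34 in exposed kidneys at 1 h, against 8.79, 8.77, 8.90 and 8.79 in air kidneys, with no overlap (-0.34 ± 0.08, padj = 0.0194). At 3 h it had 8.54, 8.14, 8.29 and 8.48 in exposed kidneys, against 8.75, 8.47, 8.65 and 8.63 in air kidneys. Here the groups overlapped by 1 air rat (-0.26 ± 0.08, padj = 0.0492). Background calls were 2.12% higher and 0.997% lower at 1 h and 2.86% and 3.53% at 3 h.

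Mrpl36, a large subunit protein with a bacterial homologue, had 8.95, 8.69, 8.96 and 8.97 in exposed kidneys at 3 h, against 9.27, 9.15, 9.22 and 9.27 in air kidneys (-0.34 ± 0.08, padj = 0.00816). Mrpl49, a mitochondria-specific large subunit protein, had 7.36, 7.04, 7.45 and 7.44 in exposed kidneys, against 7.58, 7.46, 7.67 and 7.80 in air kidneys (-0.31 ± 0.09, padj = 0.0409). For both genes every exposed rat was below every air rat. The second probe set of Mrpl49 gave -0.22. Mrps6, the small subunit protein with its highest air level in kidney, moved the other way, with 10.13, 9.96, 10.12 and 10.12 in exposed kidneys against 9.79, 9.6, 9.84 and 9.81 in air kidneys (0.32 ± 0.09, padj = 0.0206). All exposed kidneys lay above all air kidneys.

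The promoters of these 3 genes hold the YY1 core, in capitals in the windows that follow, and that of Mrpl34 does not. The genes were picked for this display after their values were seen. The word was in 14 of the 59 promoters searched (23.7%), and in no other called gene's promoter among them. Mrps6 rose while Mrpl36 and Mrpl49 fell, and a part of YY1 was not tested. The windows are 5′ to 3′ on the gene's strand, at chr1:31795122-31795145 (minus strand) for Mrpl36, chr11:44778656-44778679 (plus strand) for Mrps6 and chr1:212779296-212779319 (minus strand) for Mrpl49. In Mrpl36 the word is on the strand opposite to the gene, so that its complement is in capitals.
Mrpl36: gaccctacGCCATCTTtctttctg
Mrps6: attccatcAAGATGGCagccaaga
Mrpl49: gaggagcaAAGATGGCagcaaatg

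Counts in kidney varied with the fit. With only the 2 groups in the fit 0 genes were called at 1 and at 3 h. Pooling air rats of all times gave 14 at 3 h and 12 at 6 h. The share of all genes called was not counted in these fits, and the background given for the main fit does not apply to them. The call of Mrpl34 at 3 h was lost in 5 of 8 alternative fits and without 5 of the 8 rats (padj up to 0.225). Without air Rat726 or exposed Rat719, 0 were called at 1 h, and without air Rat727, 2. At 3 h 2 were called without exposed Rat729 or without air Rat732, Rat738 or Rat739. Proximal tubule markers averaged 10.54 to 10.69 in exposed kidneys at 1 h, against 10.70 to 10.83 in air kidneys, and their part in the result was not tested. At 6 and 24 h limma called 0 genes, with 8 higher and 3 lower at an unadjusted p under 0.05 at 6 h (all genes 5.57% and 4.48%) and 6 higher and 0 lower at 24 h (3.1% and 2.4%; called background 0.253% and 0.0967% at 6 h, 0% in both directions at 24 h). Medians were -0.035, -0.029, -0.002 and 0.058 at 1, 3, 6 and 24 h, and over all genes between -0.014 and 0.010.

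The greatest changes in a solid tissue were in liver at 3 h. Mrps2 had 7.84, 7.85, 7.98 and 7.64 in exposed livers, against 6.86, 7.03, 7.05 and 7.07 in air livers (0.83 ± 0.12, 95% interval 0.58 to 1.07, padj = 0.000144). Mrpl47 had 7.81, 7.76, 7.92 and 7.98 in exposed livers, against 6.94, 7.08, 6.80 and 7.02 in air livers (0.91 ± 0.14, 95% interval 0.62 to 1.2, padj = 0.000295). All exposed livers lay above all air livers for both genes. The other 2 probe sets of Mrps2, both dimmer, gave 0.75 and 0.53, and Mrpl47 has no other. Both calls held in all 8 alternative fits and without each of the 8 rats. The remaining 71 genes gave no call, and the 73 genes together had a median of -0.019 with 30 above 0, against -0.014 over all genes. At an unadjusted p under 0.05, 8 were higher and 2 lower (all genes 7.27% and 8.38%). Background calls were 1.99% higher and 1.87% lower.

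Over time Mrps2 in liver was not called at 1 h (-0.12 ± 0.12), rose at 3 h, and was not called at 6 h (0.56 ± 0.15, padj = 0.132) or 24 h (-0.41 ± 0.12, padj = 0.506). At 24 h exposed livers had 6.89, 7.01, 6.91 and 6.88, against 7.50, 7.12, 7.50 and 7.20 in air livers. The exposed livers were thus the lower group at that time, without overlap. The phosphine effect on Mrps2 differed between times in liver (limma F over 4 times, padj = 0.00162), and the background for that test was 0.476% of all genes. Mrpl47 gave 0.15 ± 0.14, 0.91 ± 0.14, 0.59 ± 0.17 and 0.02 ± 0.14 at 1, 3, 6 and 24 h, and its difference between times was not called.

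At 6 h Mrpl12 was called. It had 8.75, 9.04, 9.01 and 8.96 in 4 exposed livers, against 8.53 and 8.37 in 2 air livers (0.49 ± 0.10, padj = 0.0288). The groups did not overlap, but the call was lost without any 1 of 5 of the 6 rats (Rat760, Rat761, Rat789 or either air rat), and 2 genes were called without exposed Rat758. It was lost too with only the 2 groups in the fit and with array median centring. Of its other probe sets, both dim, 1 gave 0.51 and 1 gave -0.15. Mrps31, a mitochondria-specific small subunit protein, had the same direction with 8.08, 8.20, 8.08 and 8.29 in exposed livers against 7.47 and 7.36 in air livers, but missed the threshold (0.74 ± 0.17, padj = 0.0748). Background calls at 6 h were 0.164% higher and 0.0595% lower, and 11 of the 73 genes were higher and 3 lower at an unadjusted p under 0.05 (all genes 4.25% and 4.96%). Hepatocyte markers averaged 12.86 to 12.92 in exposed livers at 6 h and 12.93 to 12.97 in air livers, macrophage markers 7.98 to 8.164 and 8.298 to 8.392, and their part was not tested. Pooling air rats of all times gave 9 called genes at 6 h, and the share of all genes called in that fit was not counted.

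**Figure D3:**
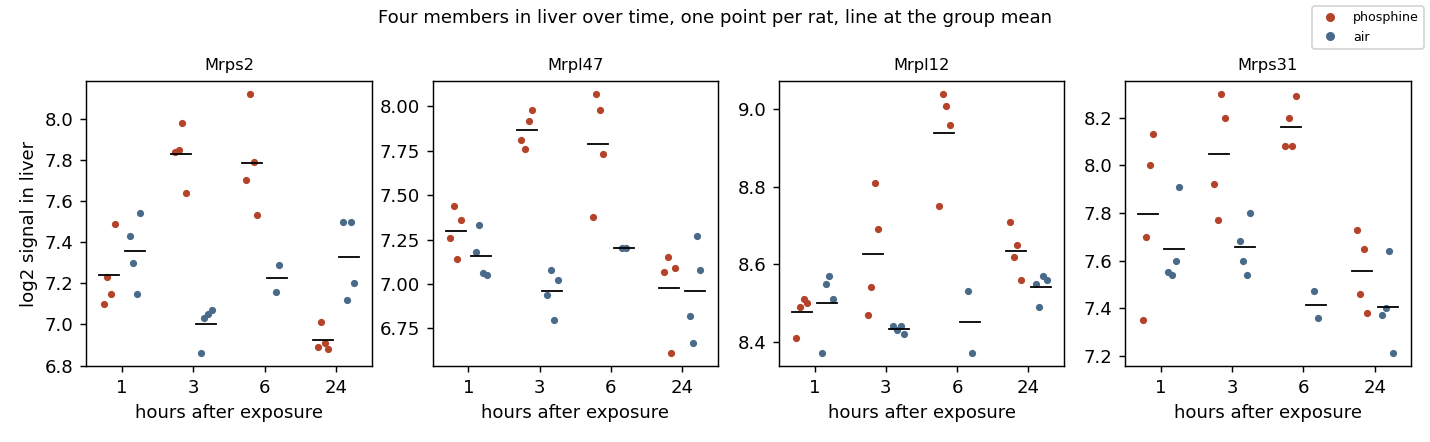
Log2 signal in liver (y axis) of Mrps2, Mrpl47, Mrpl12 and Mrps31 at 1, 3, 6 and 24 h (x axis), phosphine left of air at each time. Each point is 1 rat and each line a group mean; the exposed rats lie apart from air rats for Mrps2 and Mrpl47 at 3 h and for Mrpl12 and Mrps31 at 6 h.

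At 1 and 24 h limma called 0 of 73 genes in liver. Background calls were 0.208% higher and 0.127% lower at 1 h and 0% in both directions at 24 h, and the unadjusted counts were 0 higher and 3 lower at 1 h (all genes 3.12% and 3.64%) and 0 and 2 at 24 h (2.92% and 4.23%). The medians were 0.001, 0.067 and 0.008 at 1, 6 and 24 h, and with array median centring -0.002, 0.145 and 0.051, while that at 3 h turned to 0.032. Mrpl34, called in kidney, had liver differences of -0.37 ± 0.11 at 1 h (padj = 0.219) and -0.34 ± 0.11 at 3 h (padj = 0.0929), which missed the threshold. The same 3′ minus 5′ difference was 0.3912 to 0.935 in exposed livers at 3 h and 0.2789 to 0.5907 in air livers, and its part was not tested.

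Lung had the most calls of any solid tissue, among the 73 genes as over all genes. At 1 h all 3 called genes were lower. Mrpl55, a large subunit protein, had 7.59, 7.50, 7.72 and 7.73 in exposed lungs, against 8.03, 8.13, 8.08 and 7.80 in air lungs (-0.38 ± 0.08, padj = 0.00486). Mrps24, a small subunit protein, had 8.51, 8.51, 8.66 and 8.60 in exposed lungs, against 8.98, 8.73, 8.83 and 8.75 in air lungs (-0.25 ± 0.07, padj = 0.0255). In both genes all exposed lungs were below all air lungs.

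Mrpl34 had 7.36, 7.21, 7.61 and 7.50 in exposed lungs at 1 h, against 7.91, 7.58, 7.92 and 7.64 in air lungs, with 1 pair of rats overlapping (-0.34 ± 0.09, padj = 0.0259). The median over the 73 genes was -0.058 and over all genes -0.028, and 0 genes were higher and 11 lower at an unadjusted p under 0.05 (all genes 6.73% and 11.5%). Background calls were 2.18% higher and 3.62% lower, so that 3 of 73 lower was near the background. Mrpl55 had 7.78 ± 0.03 at 3 h in exposed lungs, against 7.71 ± 0.08 in air lungs (SD, n = 4 each). Air lungs averaged 8.01 for this gene at 1 h, and its 1 h call was lost with air rats of all times pooled. Its phosphine effect differed between times (F, padj = 0.0491, background 6.38%). That test called 0 of the 73 genes after quantile normalization within the tissue, and 0 without the arrays with another organ's markers. The call of Mrpl34 was lost without any of 4 of the 8 rats. With 1 rat left out, 1 gene was called at 1 h without exposed Rat710 or Rat712 or air Rat720 or Rat726. With only the 2 groups in the fit 0 were called.

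At 3 h 4 genes were higher and 1 lower in lung. Mrps25, a mitochondria-specific small subunit protein, had 7.87, 7.84, 7.89 and 7.77 in exposed lungs, against 7.63, 7.59, 7.57 and 7.59 in air lungs (0.25 ± 0.07, padj = 0.0205). Mrpl2, a large subunit protein with a bacterial homologue, had 6.55, 6.54, 6.67 and 6.43, against 6.06, 6.42, 6.25 and 6.09 in air lungs (0.34 ± 0.10, padj = 0.0207). For both genes the exposed and air lungs did not overlap.

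Mrpl1, a large subunit protein with a bacterial homologue, had 7.44, 7.43, 7.54 and 7.31 in exposed lungs at 3 h, against 7.09, 7.29, 7.14 and 7.09 in air lungs (0.28 ± 0.08, padj = 0.0299). Mrps9, a small subunit protein with a bacterial homologue, had 7.77, 7.72, 7.90 and 7.53, against 7.19, 7.40, 7.45 and 7.69 in air lungs (0.30 ± 0.09, padj = 0.0284). The groups were apart for Mrpl1 and overlapped for Mrps9, whose second probe set gave -0.05. Mrpl14, the gene with the greatest lung excess in air rats, was the one that fell. It had 8.01, 7.80, 7.69 and 7.62 in exposed lungs, against 8.17, 7.96, 8.42 and 8.05 in air lungs, with an overlap (-0.37 ± 0.11, padj = 0.0289).

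The median over the 73 genes in lung at 3 h was 0.075, with 54 above 0, and over all genes 0.011. At an unadjusted p under 0.05, 14 were higher and 6 lower (all genes 13% and 12.3%), and background calls were 5.84% higher and 5.76% lower, so that 4 of 73 higher was near the background and 1 of 73 lower was under it. Without exposed Rat730 all 5 of these calls were lost, and the only gene called was another of the 73. Only 1 gene was called without air Rat732, 3 without exposed Rat729 or air Rat739, and 1 with only the 2 groups in the fit. Skeletal muscle markers reached 8.012 in the exposed lung of Rat729 and 9.195 in the air lung of Rat733, and without these 2 arrays 3 genes were called. Neutrophil markers averaged 5.921 to 6.245 in exposed lungs and 5.13 to 5.651 in air lungs at 3 h, macrophage markers 7.273 to 7.392 and 6.91 to 7.237, and erythroid markers 5.615 to 6.025 and 5.099 to 5.578, all without overlap, and their part was not tested. At 6 and 24 h limma called 0 genes, with 3 higher and 1 lower at an unadjusted p under 0.05 at 6 h (all genes 4.83% and 3.97%) and 1 and 1 at 24 h (1.19% and 1.96%). Background calls were 0.0595% and 0.0372% at 6 h and 0.00744% and 0% at 24 h.

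**Figure D4:**
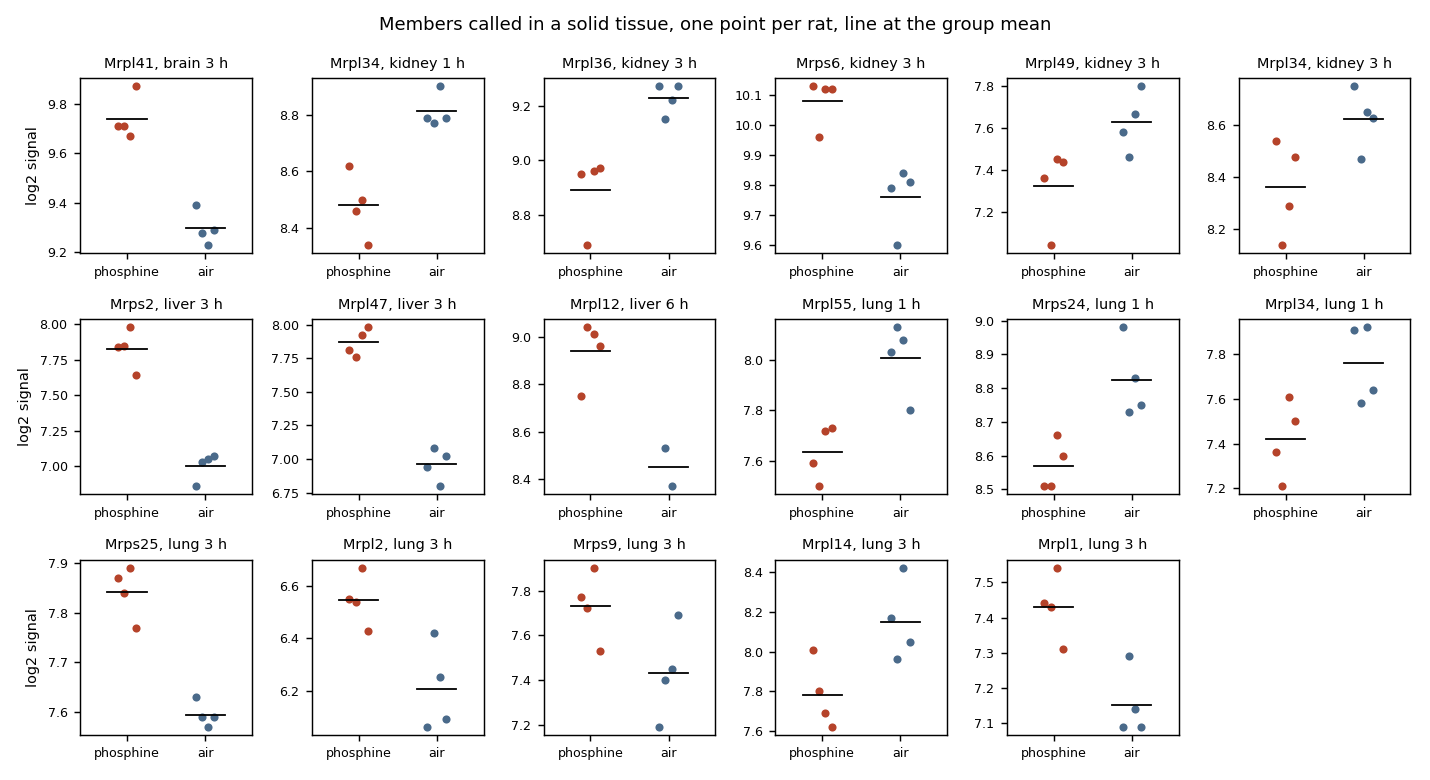
Log2 signal (y axis) of the 17 called pairs of a gene and a comparison in solid tissues, phosphine left of air in each panel. Each point is 1 rat and each line a group mean; the exposed and air rats overlap only for Mrpl34 in kidney at 3 h and in lung at 1 h, and for Mrps9 and Mrpl14 in lung at 3 h.

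Across tissues, Mrpl34 was lower in exposed rats in 3 called comparisons, of which that in kidney at 3 h was lost in 5 of 8 alternative fits and those in kidney and lung at 1 h in 1 of 8 each. Its other differences at 1 and 3 h were -0.11 and -0.05 in brain, -0.15 and -0.16 in heart and 0.00 in lung at 3 h. At 24 h its solid-tissue differences lay between -0.15 in lung and 0.11 in kidney and in liver. The other called genes were called in 1 solid tissue each. Whether the phosphine effect differed between the 5 solid tissues was tested with limma's F at each time. At 3 h it differed for 9 of 73 genes (background 14.4%), at 6 h for 1 (1.35%), and at 1 and 24 h for 0 (3.27% and 0.625%), with 6 and 8 genes at an unadjusted p under 0.05 (all genes 13.8% and 8.66%).

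The clearest difference between tissues was that of Mrpl47 at 3 h (padj = 2.94e-07), with 0.91 in liver against 0.05 in brain, -0.15 in heart, 0.15 in kidney and 0.07 in lung. Mrpl41 (padj = 0.000242) had 0.44 in brain against -0.13 in heart, -0.12 in kidney, -0.02 in liver and 0.00 in lung. Mrps2 (padj = 0.00351) had 0.83 in liver against 0.27 in kidney, 0.13 in lung, 0.02 in heart and -0.13 in brain. Mrps31 differed at 3 h (padj = 0.00696) and at 6 h (padj = 0.0076), with 0.39 and 0.74 in liver against -0.22 and -0.18 in heart. Mrpl36 (padj = 0.0089) was at -0.34 in kidney against 0.11 in brain. The remaining 4 at 3 h were Mrpl2, Mrps9, Mrpl39 and Mrpl19. For Mrpl39 the test rested on 0.20 in lung against -0.20 in kidney, and for Mrpl19 on 0.22 in liver against -0.28 in heart. None of these was called within its tissue. The heart values at 3 h include exposed Rat729, whose heart had hepatocyte markers at 12.61 against 3.396 to 3.946 in air hearts. The part of that array was not tested. Differences between times were called for 0 genes in brain, heart and kidney (background 0.0893%, 0.424% and 1.75%), with 5, 0 and 12 genes at an unadjusted p under 0.05 (all genes 8.95%, 11% and 16.8%).

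A panel of genes of both subunits and both kinds, Mrpl3, Mrpl12, Mrpl18, Mrpl44, Mrps16 and Mrps22, was followed in every comparison. Apart from Mrpl12 in liver at 6 h, none was called in a solid tissue. Over 20 solid comparisons Mrps16 ran between -0.21 and 0.11, Mrps22 between -0.20 and 0.13, Mrpl44 between -0.20 and 0.18, Mrpl3 between -0.29 and 0.11 and Mrpl18 between -0.34 and 0.19.

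Blood at 3 h was the comparison with the most called genes and with the median farthest from 0. Limma called 0 higher and 7 lower (background 0.707% higher and 5.22% lower), and 26 were lower and 0 higher at an unadjusted p under 0.05 (all genes 16.9% and 5.13%). The median difference was -0.52 with 8 of 73 genes above 0, and over all genes it was -0.07 with 44.9% above 0. Large subunit genes had a median of -0.590 and small subunit genes of -0.491.

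Mrps17, a small subunit protein with a bacterial homologue, had 7.16, 5.08, 5.72 and 5.69 in exposed blood, against 7.70, 7.57, 8.29 and 7.98 in air blood (-1.97 ± 0.47, padj = 0.0207). Mrps33, a mitochondria-specific small subunit protein, had 7.36, 6.24, 6.37 and 6.66, against 8.02, 7.49, 7.84 and 8.11 in air blood (-1.21 ± 0.33, padj = 0.0343). Mrpl15, a large subunit protein with a bacterial homologue, had 3.93, 4.74, 5.15 and 5.80, against 7.16, 5.87, 6.24 and 6.59 in air blood (-1.56 ± 0.43, padj = 0.0368). In these 3 genes every exposed sample was below every air sample, although the exposed samples spread widely.

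Mrps9 had 4.63, 4.6, 6.04 and 5.98 in exposed blood, against 6.46, 6.45, 6.45 and 6.96 in air blood (-1.27 ± 0.36, padj = 0.0385), and its second probe set gave -0.17. Mrps22, a mitochondria-specific small subunit protein, had 5.37, 5.38, 5.80 and 6.12, against 6.53, 6.90, 6.79 and 6.18 in air blood (-0.93 ± 0.27, padj = 0.0465). Both were without overlap. Mrpl23 (-1.11 ± 0.31, padj = 0.0406) and Mrps16 (-1.06 ± 0.31, padj = 0.0447), which both have bacterial homologues, were lower with overlap. Exposed values of Mrpl23 were 7.67, 6.23, 7.16 and 6.18, against 7.89, 7.59, 8.06 and 8.12 in air blood, and those of Mrps16 were 5.88, 5.24, 5.46 and 5.49, against 7.16, 5.83, 6.43 and 6.89.

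**Figure D5:**
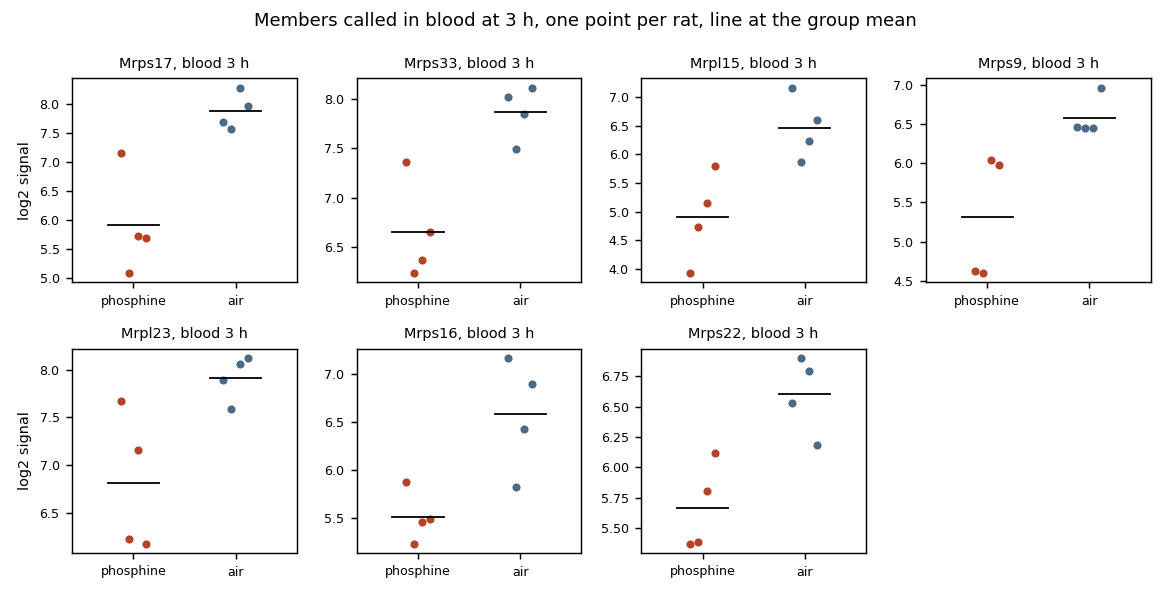
Log2 signal (y axis) of the 7 genes called in blood at 3 h, phosphine left of air in each panel. Each point is 1 rat and each line a group mean; exposed and air samples overlap for Mrpl23 and Mrps16 and are apart for the other 5.

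Other measures moved with exposure in the same blood samples. The 75th percentile of all genes was 6.1201 to 6.3634 in exposed samples and 6.6757 to 6.8583 in air samples. Lymphocyte markers averaged 7.6 to 8.266 in exposed samples and 8.623 to 9.221 in air samples, both without overlap. Erythroid markers (11.81 to 12.11 against 11.62 to 11.98) and neutrophil markers (6.937 to 7.779 against 6.561 to 7.539) overlapped, as did the 3′ minus 5′ difference (0.791 to 1.116 against 0.8412 to 1.034). The part of cell makeup in the result was not tested. The call depended on scaling: limma called 0 genes after quantile normalization, with a median of -0.17, 1 after array median centring, with a median of -0.41, and 0 with the 75th percentile as a covariate, where the median was -0.058. It also called 0 without exposed Rat729, air Rat738 or air Rat739, and 2 without exposed Rat730 or air Rat732. The blood of Rat729 had the lowest median over the 73 genes, 5.47, against 6.14 to 6.19 in the other 3 exposed samples.

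At 1 h limma called 0 genes in blood, with 2 higher and 4 lower at an unadjusted p under 0.05 (all genes 3.33% and 4.28%) and a median of -0.057 (background 0.00744% higher and 0% lower). At 6 h, with 5 exposed samples and 1 air sample, 0 were called, 7 higher and 0 lower reached an unadjusted p under 0.05 (all genes 5.92% and 4.1%), and the median was 0.22 (background 0.0446% and 0.00744%). Quantile normalization turned that median to -0.06. The medians over the 73 genes in exposed blood were 6.1464 to 6.4672 at 1 h, 5.4657 to 6.1924 at 3 h, 6.5437 to 7.1659 at 6 h, and 6.6461 and 6.7274 in the 2 samples at 24 h, for which there is no air sample. Air blood had 6.2671 to 6.7321 at 1 h, 6.4512 to 6.8555 at 3 h and 6.7544 in the sample at 6 h. The interval of the difference lay within 1.5-fold for only 8.22%, 4.11% and 0% of the 73 genes in blood at 1, 3 and 6 h, so that smaller changes were not detectable there.

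Lists of genes that act on or beside the mitoribosome were counted in the same fits. Each list is named for its main kind of gene, and some also hold related genes. The share of all genes called is given again beside some counts, and for the others is that given above for the tissue and time. In liver at 3 h, when Mrps2 and Mrpl47 rose, 4 of 20 regulators of mitochondrial transcription and biogenesis were higher (all genes 1.99%) and 0 lower. They were Ppargc1a, a coactivator of genes for mitochondria (3.71 ± 0.42, padj = 1.06e-05), Ppargc1b, its relative (1.77 ± 0.26, padj = 0.000179), Pprc1, another relative (1.45 ± 0.38, padj = 0.0285), and Polg2, the accessory subunit of the mitochondrial DNA polymerase (1.27 ± 0.19, padj = 0.000151). Ppargc1a (2.56 ± 0.42, padj = 0.00644) and Ppargc1b (1.57 ± 0.26, padj = 0.00698) were also higher in liver at 1 h, when 0 of the 73 genes were called. Of 15 translation factors, 1 (all genes lower 1.87%), Mtfmt, which formylates the initiator methionyl-tRNA, fell at 3 h (-0.54 ± 0.11, padj = 0.00616).

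In kidney at 1 h Myc (1.57 ± 0.27, padj = 0.00099) and Ppargc1b (0.72 ± 0.11, padj = 0.000443) were higher, 2 of 20 regulators (all genes 2.12%), as were Ddit3 (0.93 ± 0.14) and Atf4 (0.38 ± 0.09), 2 of 16 genes of the protease and chaperone list. At 3 h Pprc1 was higher (0.92 ± 0.16, padj = 0.000543) and Mterf2 lower (-0.48 ± 0.11, padj = 0.00786). At that time 3 of 16 genes of the aminoacyl-tRNA synthetase list were lower (all genes 3.53%), namely Cars2 (-0.56 ± 0.13), Qrsl1 (-0.44 ± 0.12) and Rars2 (-0.31 ± 0.09). So were 2 of 15 genes of the translation factor list, Mettl8 (-0.48 ± 0.13) and Pdf (-0.39 ± 0.08). Ddit3 (1.54 ± 0.14, padj = 1.58e-07) and Atf4 (0.77 ± 0.09, padj = 5.17e-06), transcription factors of the integrated stress response, were the called genes of the protease and chaperone list at 3 h too (2 of 16 higher, all genes 2.86%), and none of its chaperones or proteases was called.

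In lung at 1 h 3 of 26 assembly genes were lower (all genes 3.62%), Mettl17 (-0.48 ± 0.11), Mtg2 (-0.42 ± 0.12) and Mrm2 (-0.38 ± 0.12), beside the 3 lower members. Pdf (-0.43 ± 0.09), Mtrf1l (-0.40 ± 0.10), Mterf2 (-0.77 ± 0.14) and Mterf1 (-0.35 ± 0.10) were lower too, and Letm1 (0.36 ± 0.08) and Ppargc1a (0.98 ± 0.21) higher. At 3 h 4 of 16 genes of the protease and chaperone list were higher (all genes 5.84%) and 0 lower, with Hspa9, a chaperone of the mitochondrial matrix (0.46 ± 0.08, padj = 0.000548), Lonp1, a matrix protease (0.43 ± 0.12, padj = 0.0201), Grpel1, the exchange factor of Hspa9 (0.23 ± 0.07, padj = 0.0367), and Atf4 (0.39 ± 0.08, padj = 0.00279). Mpv17l2, which binds the large subunit (0.39 ± 0.08, padj = 0.00279), and Oxa1l, the inner membrane insertase (0.46 ± 0.09, padj = 0.00132), were higher too, but Oxa1l had -0.07 when its probe sets were averaged. Yy1 was lower (-0.38 ± 0.11, padj = 0.0268), and Top1mt (0.62 ± 0.15) and Tfb2m (0.32 ± 0.08), which act on mitochondrial DNA and its transcription, were higher. Nop9 (0.31 ± 0.10) of the assembly list was higher as well. Heart at 1 h had Ppargc1b (0.87 ± 0.15, padj = 0.00155), Myc (2.17 ± 0.48, padj = 0.0198) and Atf4 (0.48 ± 0.12, padj = 0.0442) higher, and at 3 h Perm1 (-0.65 ± 0.18, padj = 0.0441) and Mterf2 (-0.70 ± 0.18, padj = 0.0297) lower, with 0 of the 73 genes called at either time. In blood at 3 h Tfam, which packs mitochondrial DNA (-1.93 ± 0.45, padj = 0.0202), and Oxa1l (-1.24 ± 0.24, padj = 0.00951) fell with the 7 members. Yy1 (-1.61 ± 0.42), Htra2 (-1.67 ± 0.40), Hspd1 (-1.30 ± 0.32) and Grpel1 (-1.07 ± 0.27) were lower there as well, as were 5.22% of all genes. Further calls were 1 of 16 genes of the synthetase list lower in kidney at 1 h (Sars2) and in lung at 3 h (Gatc). Of 26 genes of the assembly list 1 was lower in heart at 3 h (Mrm2), and 1 was higher and 1 lower in kidney at 3 h (Ngrn and Mterf3). Yme1l1 differed by 2.97 in blood at 6 h, where there was 1 air sample. The 5 further mitoribosomal proteins had 0 calls in all 23 comparisons, and in blood at 3 h 3 of 5 were lower at an unadjusted p under 0.05.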

How the data were processed

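RNA was extracted with RNeasy kits and biotin-labelled with a 3′ IVT kit, per the labels' protocols, and hybridised to single-colour rat arrays. The authors deposited log2 signals per probe set, made with RMA in Partek per the submitters' processing notes; whether tissues were normalized together is not given in the sources used here. The deposited log2 values were used as they are. Arrays give no counts, so their number limits the precision.

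Of 31139 probe sets, 97 controls, 572 listing several genes and 11407 unnamed ones were left out. The remaining 19063 gave 13438 genes, by the brightest probe set. Groups come from the labels. limma 3.58.1 (R 4.3.3) was fitted on all genes of a tissue, with a mean per exposure and time, and p-values were adjusted over all genes by Benjamini-Hochberg at 0.05. Differences between times or tissues used limma's F. The scripts were tested on simulated data. The 73 genes and all lists were chosen with earlier results of these data known. The text names called members, the fixed panel, the genes of widest tissue range, up to 4 per tissue and direction, the 5 lowest p per difference test (the other 4 at 3 h are added, after their values were seen) and up to 3 called genes per related list and comparison, in a selection, with further genes of those lists named after their values were seen. Levels were not ranked between genes, since probes differ. The alternatives were quantile normalization, array median centring, a filter at the 40th percentile, averaged probe sets, array weights, fits of 2 groups, pooled air rats, arrays or rats left out, and a replicate block. Exposed and air samples are different rats, so no pairing applies to phosphine against air. Promoters are from RefSeq (GRCr8).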

Additional observations from a re-analysis of the deposited data

Results flagged for a closer look

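In 8 of 87 groups tested for a sample far from the others, 1 array stood apart, and chance flags about 1 in 20 groups. For the median over the 73 genes these were the exposed heart of Rat729 at 3 h (8.78, others 9.23 to 9.31), the exposed blood of Rat729 at 3 h (5.47, others 6.14 to 6.19), the exposed brain of Rat789 at 6 h (8.09, others 7.85 to 7.86) and the air kidney of Rat720 at 1 h (8.60, others 8.66). The heart of Rat729 and the kidney of Rat720 also carried hepatocyte markers, 8.734 and 5.245 above their tissue's median, whose part was not tested. For single genes they were Mrpl36 (8.69, others 8.95 to 8.97) and Mrps6 (9.96, others 10.12 to 10.13) in the exposed kidney of Rat729 at 3 h, Mrpl34 in the air kidney of Rat726 at 1 h (8.90, others 8.77 to 8.79) and Mrps9 in the air blood of Rat739 at 3 h (6.96, others 6.45 to 6.46).

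The phosphine effect differed between times by limma's F for Mrps2 in liver (adjusted p = 0.00162) and Mrpl55 in lung (adjusted p = 0.0491). It differed between the 5 solid tissues at 3 h for Mrpl47 (adjusted p = 2.94e-07), Mrpl41 (0.000242), Mrps2 (0.00351), Mrps31 (0.00696), Mrpl36 (0.0089), Mrpl2 (0.0126), Mrps9 (0.0176), Mrpl39 (0.0225) and Mrpl19 (0.0399), and at 6 h for Mrps31 (adjusted p = 0.0076).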

How the results depend on the processing

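Mrps2 and Mrpl47 in liver at 3 h kept their calls in every alternative run and without each rat, with log2 differences of 0.60 to 0.89 and 0.82 to 0.96. Over all alternatives for the 24 called pairs, 150 of 381 runs lost the call and 0 changed sign. For called genes of the related lists 211 of 856 lost it and 1 changed sign, Oxa1l in lung at 3 h with -0.07 by averaged probe sets. Causes were not tested. Air groups of 2 rats at 6 h and the noise of blood limit what could be detected.

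Counts of called genes that moved by over 1.5 times were these, and the share of all genes called was not counted in these alternatives. Array weights gave 1 in brain at 1 h, 2 in brain at 3 h, 1 each in heart at 6 and 24 h, 4 in kidney at 6 h, 8 and 2 in liver at 3 and 6 h, 6 and 11 in lung at 1 and 3 h, and 11 in blood at 3 h. Pooled air rats gave 2 in heart at 3 h, 14 and 12 in kidney at 3 and 6 h, 6 and 9 in liver at 3 and 6 h, 5 and 1 in lung at 1 and 6 h, and 2 in blood at 1 h. Fits of only the 2 groups gave 0 in kidney at 1 and 3 h, in liver at 6 h and in lung at 1 h, 1 in lung at 3 h and 4 in blood at 3 h. The filter on dim genes gave 9 in kidney at 3 h, 5 and 2 in liver at 3 and 6 h and 11 in blood at 3 h. Quantile normalization gave 4 in liver and 0 in blood at 3 h, centring gave 0 in liver at 6 h and 1 in blood at 3 h, and averaged probe sets 0 in liver at 6 h. Leaving out arrays with another organ's markers gave 3 in lung at 3 h. The 75th percentile as a covariate, chosen after seeing the data, gave 0 in blood at 3 h.

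With 1 rat left out, counts ran between 0 and 1 in brain at 3 h, 0 and 2 in kidney at 1 h, 2 and 5 in kidney at 3 h, 2 and 3 in liver at 3 h, 0 and 2 in liver at 6 h, 1 and 3 in lung at 1 h, 1 and 5 in lung at 3 h, and 0 and 8 in blood at 3 h. Tests between times gave 2 in kidney and 2 in liver with the filter, and in lung 0 by quantile normalization, 2 by averaged probe sets and 0 without the arrays with another organ's markers. Tests between tissues gave 1 at 1 h and 3 at 6 h without those arrays. With the rat as a replicate block (correlation 0.0268), the test between tissues at 3 h gave 10 genes in place of 9. In the baseline fit the rat was added as a term of the fit, without that correlation, and no baseline count changed. No paired analysis was possible for phosphine against air because the rats differ.

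In air rats, higher counts moved to 10 in brain by centring and 4 without blood, 1 in lung by either, and 13 and 9 in blood by quantile normalization and centring. Lower counts moved to 65 in brain without blood, to 9, 10, 2 and 11 in kidney by quantile normalization, centring, averaged probe sets and without blood, and to 15 and 16 in liver by quantile normalization and without blood.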
